A study of Mus musculus with 16 samples.

Results

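The 10 genes described here encode alpha- and beta-tubulin, the proteins that pair into the building block of microtubules. They were taken by symbol from the count tables, where all 10 of 22609 gene entries were found in each of 16 libraries, and all 10 passed the filter on low counts that left 14200 genes for testing. Tuba1a, Tubb2a, Tubb2b and Tubb3 are grouped below as neuronal isotypes, and Tuba1b, Tuba1c, Tubb5 and Tubb6 as ubiquitous ones. Tuba4a and Tuba8 were kept apart from both classes under the label other tissue, and Tuba4a was also tried among the neuronal ones.

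The libraries came from lumbar dorsal root ganglia (L3 to L5) of male mice aged 8 to 16 weeks, from cells sorted for a fluorescent tracer, wheat germ agglutinin, that had been injected into the paw. All mice carried floxed alleles of Ltbr, the lymphotoxin beta receptor gene, either alone (fl/fl) or with a Cre recombinase driven by Nav1.8, a sodium channel of nociceptors (CKO). Each genotype received vehicle (the treatment label is water) or paclitaxel (PTX) at 6 mg per kg, injected into the peritoneum 3 times at intervals of 2 days. The tracer was given 16 days and tissue was taken 18 days after the last injection. There were 4 libraries in each of the 4 groups by the labels, while the design text states 3 per group, and the treatment text of every library describes PTX. Whether separate animals stand behind the libraries of a group is not labelled, so p-values measure the spread between libraries, which may be technical.

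Microtubules are tracks for transport along the axon, and a sensory neuron, with one of the longest axons in the body, needs large amounts of tubulin. Paclitaxel binds beta-tubulin inside the assembled microtubule and stabilises it, and sensory neuropathy is a common side effect of the drug. The isotypes differ mainly in their acidic C-terminal tails, which protrude from the microtubule surface and carry most of the enzymatic modifications. Cells also adjust tubulin mRNA to the amount of unassembled protein: when free dimers are plentiful, the mRNA is degraded while it is being translated.

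The coding ends are shown because they hold the tail codons in which isotypes differ, and because they show how little separates Tubb2a from Tubb2b for a short read. Each line gives the last 60 sense bases of a coding sequence from the GENCODE M21 transcripts (GRCm38), 5′ to 3′, with the final codon in capitals and the stop codon left out.
Tuba4a: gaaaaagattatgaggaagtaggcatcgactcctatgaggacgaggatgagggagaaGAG
Tubb2a: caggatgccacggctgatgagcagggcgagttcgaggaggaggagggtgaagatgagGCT
Tubb2b: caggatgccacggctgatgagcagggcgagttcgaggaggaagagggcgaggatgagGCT
Tubb3: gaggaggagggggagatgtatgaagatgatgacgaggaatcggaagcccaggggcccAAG
Tubb5: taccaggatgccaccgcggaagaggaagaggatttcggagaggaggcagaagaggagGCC
In all 5, 11 or 12 of the 20 codons shown are for glutamate or aspartate. Tuba4a ends in GAG, a glutamate codon, whereas most alpha-tubulin genes end in a codon for the tyrosine that is removed and put back in the tyrosination cycle. Counted from 1 at the first base printed, Tubb2a and Tubb2b differ by G42A, T48C and A51G, with the Tubb2a base first. Tubb3 ends in AAG, a lysine codon, after a stretch that differs from the ends of the other beta isotypes shown.

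Libraries were read as single ends of 50 bases, so near-identical isotypes compete for reads. Stretches of 50 bases along the longest coding transcript were searched, letter for letter and on either strand, in transcripts of other genes. Matches on the opposite strand were not counted apart. The share of stretches with a match was 83.1% in Tuba1b, 75.5% in Tuba1a and 61.0% in Tuba1c. The share was 49.6% in Tubb2a and 39.3% in Tubb2b, which mainly share with each other, and 48.8% in Tuba4a, which overlaps Stk16. Tuba8 had 14.7%, Tubb5 had 0.12%, and Tubb3 and Tubb6 had no shared stretch. Reads of Tubb3, Tubb5 and Tubb6 can therefore be assigned to 1 gene almost everywhere, while values of the single alpha 1 genes (Tuba1a, Tuba1b and Tuba1c) and beta 2 genes (Tubb2a and Tubb2b) are uncertain and were also tested as sums. Between 39.5% and 44.2% of alignments per library were set aside by the counting step as not unique.

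**Figure D1:**
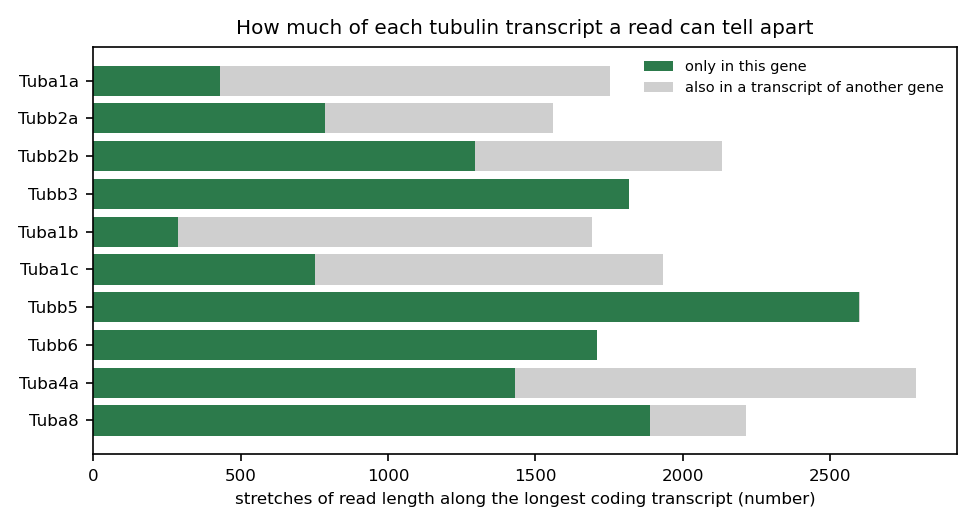
Number of 50-base stretches along the longest coding transcript of each tubulin gene (x axis). Green stretches were found only in that gene, and grey ones also in a transcript of another gene, on either strand. Tubb3 and Tubb6 have no grey part, and Tuba1b keeps 287 stretches of its own.

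Libraries held 7906504 to 11668007 gene counts. Levels below are CPM, each gene's count scaled by the TMM-corrected total of its library to a common size, and tests are those of edgeR's quasi-likelihood model of all 16 libraries, two-sided, with Benjamini-Hochberg adjustment over the 14200 genes. Library titles carry 2 dates for PTX and 2 other dates for vehicle, each with 2 libraries of both genotypes, so date and treatment cannot be told apart, while genotype is balanced. Replicates 1 and 2 carry the earlier date of each treatment and replicates 3 and 4 the later one. Ltbr was not lower under the CKO label: it ranged from 5.88 to 28.4 CPM against 6.06 to 15.6 CPM for fl/fl under PTX, and from 32.3 to 99.0 CPM against 42.4 to 51.4 CPM under vehicle. Reads of exons outside a deletion would still be counted, and the source of the Ltbr reads was not tested. CKO below means the libraries labelled CKO.

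Tubulin made up more of the RNA after PTX. The 10 genes together took 0.520% to 1.27% of gene counts in the 8 PTX libraries and 0.181% to 0.402% in the 8 vehicle libraries, with no overlap. Over both genotypes, 6 of the 10 rose after PTX and 0 fell, while 10.6% of all genes tested were called higher and 6.19% lower. All 4 neuronal isotypes rose, with a median log2 fold change of 2.34. Of the 4 ubiquitous isotypes, Tuba1b and Tubb5 rose, by 1.10 and 1.37 on the log2 scale. Tuba1c and Tubb6, which had few counts, stood at -0.93 and -1.07 and did not pass. The median of the class, 0.08, falls between these pairs and describes no single member. Neither Tuba4a nor Tuba8 passed the test. The median over the 10 genes was 1.23, beside 0.01 over all genes.

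Sensory neuron markers moved the same way. The summed level of 12 markers (Avil, Elavl3, Snap25, Uchl1 and others) was 4715 to 11470 CPM after PTX and 595 to 2952 CPM after vehicle, and 11 of the 12 rose over both genotypes. The 10 markers of myelinating Schwann cells, all of which fell by the same test, summed to 1615 to 2899 CPM after PTX and 5761 to 8562 CPM after vehicle. Satellite glial markers spanned 4691 to 25800 CPM and 11870 to 37480 CPM, neutrophil markers 270.1 to 115500 CPM and 71000 to 229200 CPM, macrophage markers 19.5 to 584 CPM and 448 to 2981 CPM, and fibroblast markers 100.3 to 526 CPM and 742 to 3031 CPM, after PTX and vehicle respectively. Endothelial markers spanned 47.95 to 124.2 CPM and 56.76 to 240.3 CPM. Fewer of these lists' markers fell: 6 of 10 satellite glial, 7 of 10 macrophage, 6 of 9 tested fibroblast, 1 of 10 endothelial and 0 of 10 neutrophil. None of them rose. Of all genes tested, 10.6% were called higher and 6.19% lower. No marker of these lists was at 0 in all libraries of a treatment, except 1 fibroblast marker in vehicle. Within PTX, the 4 libraries of the earlier title date had 7615 to 11470 CPM of neuron markers and 270.1 to 9956 CPM of neutrophil markers, and those of the later date 4715 to 6971 CPM and 51050 to 115500 CPM. In a bulk library, fewer cells of a type and less RNA per cell cannot be told apart. Whether the cell mixture changed, and what part that had in the tubulin differences, was not tested by an independent measure.

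Tubb3, the beta III isotype used as a neuronal marker, had the largest fold change of the 3 genes whose reads are nearly all their own. In fl/fl it stood at 3600, 3456, 1693 and 1675 CPM in PTX replicates 1 to 4 and at 445, 149.8, 682 and 1002 CPM in vehicle. In CKO the values were 3133, 3704, 1490 and 1226 CPM after PTX and 437, 177, 409.9 and 577 CPM after vehicle. All 8 PTX libraries lay above all 8 vehicle libraries, a separation that 3.42% of all genes tested showed. The log2 fold change was 2.39 ± 0.38 (SE) over both genotypes (edgeR adjusted p = 0.000659), a 5.22-fold difference. The 4 libraries of the earlier PTX date, from 3133 CPM, were all above the 4 of the later one, which reached at most 1693 CPM.

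Tubb2a and Tubb2b, the class II beta isotypes that are abundant in the brain, rose by a similar factor. In fl/fl, Tubb2a stood at 1120, 1115, 733 and 670.4 CPM after PTX and at 93.7, 60.8, 254 and 239 CPM after vehicle. In CKO it stood at 761, 1046, 524 and 344 CPM and at 114, 107, 196 and 208 CPM. No vehicle library reached a PTX library, and the log2 fold change was 2.29 ± 0.32 (edgeR adjusted p = 0.000332). Tubb2b ranged from 60.4 to 362 CPM after PTX and from 10.3 to 61.3 CPM after vehicle. Its lowest PTX library, replicate 4 of CKO, lay just under its highest vehicle library, and the log2 fold change was 2.53 ± 0.40 (edgeR adjusted p = 0.000659). With the counts of both genes added, so that a read placed on the wrong one of the pair no longer matters, the value was 2.34 ± 0.32 (edgeR adjusted p = 0.000297).

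Tuba1a, the main alpha isotype of postmitotic neurons, rose less. In fl/fl it stood at 2956, 2865, 1671 and 1455 CPM after PTX and at 564, 531, 972 and 962 CPM after vehicle. In CKO it stood at 2072, 3074, 1451 and 1324 CPM and at 541, 449.5, 790 and 775 CPM. The treatments did not overlap, and the log2 fold change was 1.60 ± 0.24 (edgeR adjusted p = 0.000527), 3.03-fold. The sum of Tuba1a, Tuba1b and Tuba1c gave 1.46 ± 0.23 (edgeR adjusted p = 0.000662).

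Tubb5, the beta isotype found in nearly all cells, rose as well. In fl/fl it stood at 3424, 3219, 2209 and 2502 CPM after PTX and at 841, 911, 1334 and 1036 CPM after vehicle. In CKO it stood at 2452, 3077, 2086 and 1511 CPM and at 1029, 819.8, 983 and 933 CPM. The treatments did not overlap, and the log2 fold change was 1.37 ± 0.18 (edgeR adjusted p = 0.000210), 2.58-fold. Tuba1b, the ubiquitous alpha isotype closest to Tuba1a, ranged from 176 to 362 CPM after PTX and from 98.5 to 172 CPM after vehicle, again without overlap. It rose by 1.10 ± 0.19 (edgeR adjusted p = 0.00123), 2.14-fold.

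The other 2 ubiquitous isotypes had few counts and did not pass the test. Tuba1c ranged from 5.12 to 60.0 CPM after PTX and from 14.6 to 102 CPM after vehicle, with a log2 fold change of -0.93 ± 0.50 (edgeR adjusted p = 0.213). Its call depended on the method: limma-voom gave -1.76 (adjusted p = 0.00326), and terms for title date gave -1.18 (edgeR adjusted p = 0.0410). Most of its transcript is shared with Tuba1b and Tuba1a, and the part of shared reads in its values was not tested. Tubb6, the class V beta isotype, has reads of its own and ranged from 0.10 to 18.7 CPM after PTX and from 7.30 to 47.2 CPM after vehicle. Its log2 fold change was -1.07 ± 0.65 (edgeR adjusted p = 0.269).

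Tuba4a, an alpha isotype whose gene codes for no terminal tyrosine, overlapped between the treatments. It stood at 199 to 358 CPM after PTX and 135 to 323 CPM after vehicle, and the log2 fold change was 0.21 ± 0.19, with a 95% interval from -0.19 to 0.61 (edgeR adjusted p = 0.468). Tuba8, best known from muscle and testis, had no count in 4 of 16 libraries and at most 32.4 CPM. Its difference of -2.56 ± 1.39 did not pass the test (edgeR adjusted p = 0.218).

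**Figure D2:**
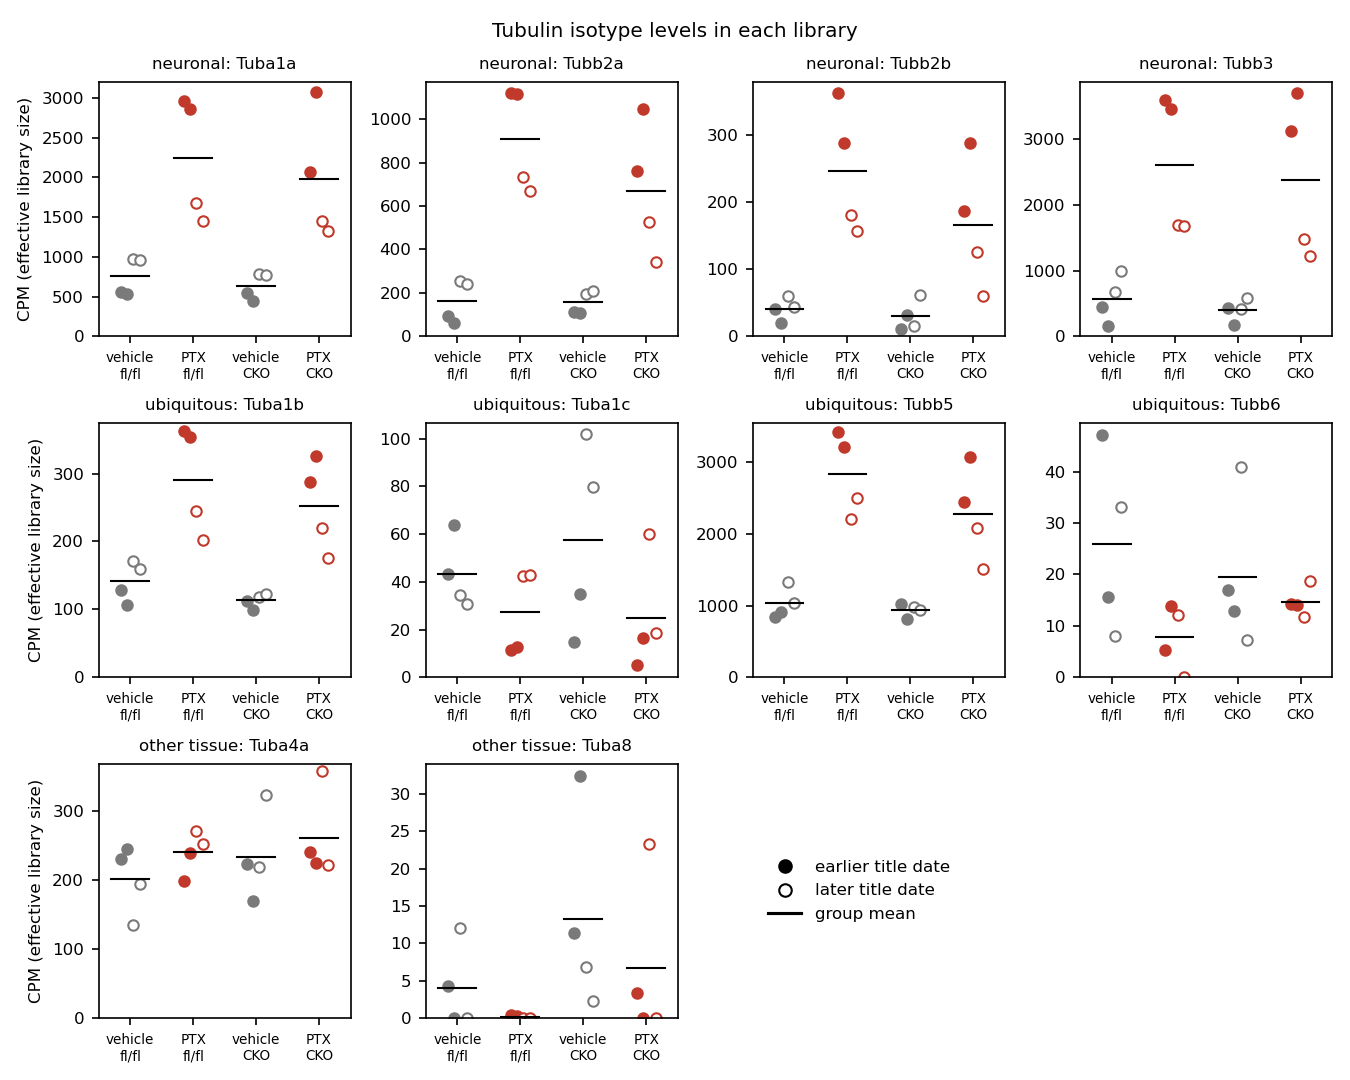
Level of each tubulin gene in CPM (y axis, linear from 0, own scale in each panel) in the 4 libraries of every group, with vehicle in grey, PTX in red and the group mean as a line. Filled points carry the earlier title date of their treatment and open points the later one. In Tuba1a, Tuba1b, Tubb2a, Tubb3 and Tubb5 all 8 red points lie above all 8 grey points.

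The same 6 genes were called in each genotype. In fl/fl, 6 of 10 rose and 0 fell, against 3.2% of all genes higher and 1.76% lower. The log2 fold changes ran from 1.04 ± 0.27 for Tuba1b (edgeR adjusted p = 0.0359) to 2.59 ± 0.57 for Tubb2b (0.0163). In CKO, 6 rose and 0 fell, against 2.22% higher and 0.359% lower. There they ran from 1.16 ± 0.27 for Tuba1b (edgeR adjusted p = 0.0315) to 2.58 ± 0.54 for Tubb3 (0.0211). The fl/fl count dropped to 2 when PTX replicate 1 or 2 or vehicle replicate 1 or 2 of that genotype was left out, and Tubb2a and Tubb5 kept their calls in each of these. The CKO count dropped to 0 without PTX replicate 1 or 2 or vehicle replicate 2 or 3 of that genotype, and to 2 without vehicle replicate 1. Over both genotypes, 6 genes were called whichever of the 16 libraries was left out, but only Tubb2a (1.76, edgeR adjusted p = 0.0361) and Tubb5 (1.04, 0.0328) when the earlier PTX date was left out, where 224 of all genes were called in place of 2378.

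**Figure D3:**
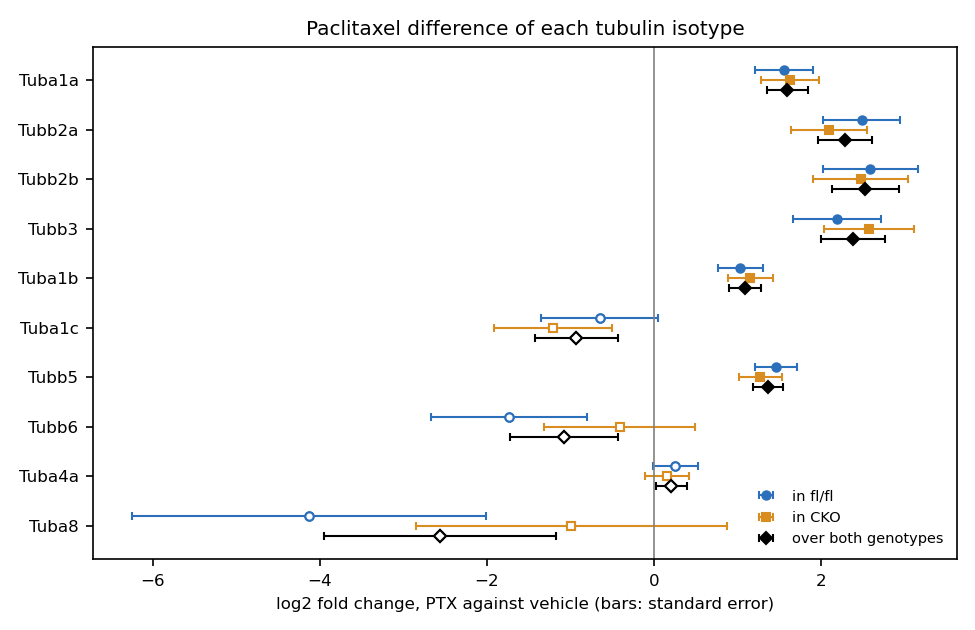
Log2 fold change of each tubulin gene after PTX against vehicle (x axis) in fl/fl (circles), in CKO (squares) and over both (diamonds), with standard errors as bars. Filled symbols passed an adjusted p of 0.05, and they are the same 6 genes in all 3 comparisons.

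No difference by genotype label was detected in any of the 10 genes. The comparison of CKO with fl/fl called 0 of 10 under PTX and 0 of 10 under vehicle, where edgeR called 0% and 0.0211% of all genes. At an unadjusted p under 0.05, 1 of the 10 (Tuba8) was counted under PTX, where 266 genes were, and 0 of the 10 under vehicle, where 655 were. DESeq2 and limma-voom also called 0 of the 10 in both, where DESeq2 called 18 of all genes under PTX and 107 under vehicle and limma-voom 0 in each. For Tubb3 the difference of CKO from fl/fl was -0.13 on the log2 scale under PTX, with a 95% interval from -1.20 to 0.95, and -0.51 under vehicle, from -1.59 to 0.57. For Tubb5 the intervals were -0.84 to 0.21 and -0.65 to 0.39, and for Tuba1a -0.89 to 0.54 and -0.96 to 0.47. Under PTX, replicates of the same number share a title date and deviated together. There, CKO lay below fl/fl in 4 of 4 pairs for Tubb5, Tubb2a and Tuba1b and in 3 of 4 for Tubb3, Tuba1a and Tubb2b. It was lower in 2 of 4 for Tuba1c, Tuba4a and Tuba8 and in 1 of 4 for Tubb6. The share of all genes with 4 of 4 was not computed, so these counts are not read as a difference by genotype. The same comparison gave a median log2 difference of -0.29 for the neuron markers and 0.68 for the satellite glial markers. Within a date the labels give no further pairing, so matching by number is arbitrary there. With the number as a block among the 8 PTX libraries, a fit added after seeing the data, the difference was -0.28 for Tubb5 (95% interval -0.64 to 0.07), -0.47 for Tubb2a (-0.89 to -0.05), -0.66 for Tubb2b (-1.28 to -0.03) and -0.13 for Tubb3 (-0.44 to 0.18). None of the 9 members that passed the filter in that fit was called (edgeR adjusted p = 0.967 for each). Its intervals are not adjusted for the number of genes, and the share of all genes with an interval excluding 0 was not computed. The interaction of genotype and PTX called 0 of 10, against 0.00704% of all genes, with 0 of 10 at an unadjusted p under 0.05. Its intervals for Tubb3 (-1.14 to 1.90) and Tubb5 (-0.93 to 0.56) include a 2-fold difference for the former and do not for the latter.

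Neuronal isotypes took a larger median share of the tubulin counts after PTX. They held 56.6% to 68.9% of the counts of the 10 genes (median 63.7%) after PTX and 36.2% to 60.7% (median 47.9%) after vehicle. Their ratio to ubiquitous isotypes was 1.44 to 2.36 after PTX (median 1.91) and 0.693 to 1.78 after vehicle (median 1.11). The treatments overlapped, since vehicle fl/fl replicate 4, at 1.78, lay above 4 PTX libraries. All ratios were over 2 on the earlier PTX date and between 1.44 and 1.71 on the later one.

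Single isotypes differed within this pool. Tubb2a held 7.02% to 10.4% of tubulin counts after PTX and 2.89% to 6.93% after vehicle, without overlap. Tuba1b moved the other way, with 2.77% to 3.60% and 3.97% to 5.28%. Tubb3 held 23.5% to 34.2% after PTX and 7.12% to 27.1% after vehicle, while Tuba1a stayed between 20.9% and 27.4% in all 16 libraries. Tubb5 held 26.1% to 36.0% and 28.0% to 43.3%. Without Tubb5, which holds most of the counts of the ubiquitous class, the ratio of neuronal to ubiquitous counts was 12.3 to 22.8 after PTX and 4.08 to 10.1 after vehicle, with no overlap. That ratio rests on Tuba1b and Tuba1c, with 83.1% and 61.0% of their stretches shared with other genes, and on Tubb6, which has few counts. The shares and ratios of tubulin counts were described and not tested.

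**Figure D4:**
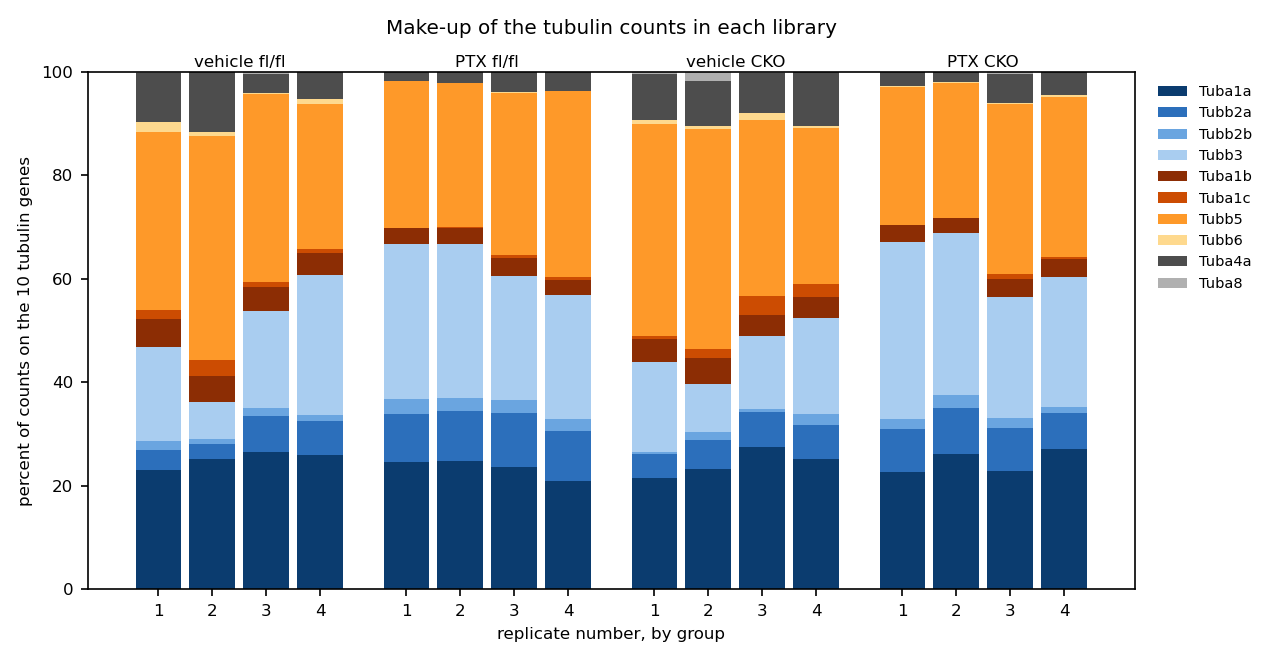
Percent of the counts on the 10 tubulin genes that falls on each gene (y axis), one bar per library, ordered by group and replicate number. Blues are neuronal isotypes, browns to yellow ubiquitous ones and greys the other 2 genes. Blue takes 56.6% to 68.9% of a bar after PTX and 36.2% to 60.7% after vehicle.

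Levels of different genes were compared per kilobase of transcript. After PTX the mean levels were 1337 ± 571 CPM per kb for Tubb3, 1169 ± 414 for Tuba1a and 966 ± 244 for Tubb5 (SD, n = 8), and the ranges of these neighbours overlapped. After vehicle the order was Tuba1a with 387 ± 113, Tubb5 with 372 ± 60.9 and Tubb3 with 259.6 ± 147 CPM per kb, again with overlapping ranges. Tubb2a followed in both, at 490.2 ± 177 CPM per kb after PTX and 98.8 ± 45.6 after vehicle. Ranges of neighbours in this order did not overlap between Tubb2a and Tuba1b and between Tuba4a and Tuba1c after PTX, and between Tuba1b and Tuba1c after vehicle. Tubb6 and Tuba8 came last in both, with Tuba8 at 1.53 ± 3.58 and 3.84 ± 4.72 CPM per kb. The order depended on the length used. As an alternative, the whole CPM of each gene was divided by its stretches found in no other gene, again per kilobase. Reads within those stretches were not counted separately, so any read counted from a shared stretch raises the value. The divisor was 429 stretches for Tuba1a and 1819 for Tubb3. Tuba1a then led after PTX with 4915 ± 1738 CPM, before Tubb3 (1373 ± 586), Tubb2a (1003 ± 362), Tubb5 (986 ± 248) and Tuba1b (946 ± 247). After vehicle Tuba1a (1627 ± 476) stood before Tuba1b (444 ± 88.9), Tubb5 (379.6 ± 62.1), Tubb3 (267 ± 151) and Tubb2a (202 ± 93.4). The step between Tubb2a and Tuba1b after PTX was not there on this scale, and Tuba1a was first in both treatments.

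Set against the neuron marker counts of the same library, Tubb3 and Tubb2a overlapped between treatments, while Tuba1a and Tuba1b did not. There were 24.3 to 41.1 Tubb3 counts per 100 neuron marker counts after PTX and 24.9 to 40.4 after vehicle. Tubb2a gave 7.30 to 10.8 and 6.49 to 15.7. Tuba1a gave 22.0 to 28.9 after PTX and 30.8 to 89.1 after vehicle, so that all PTX libraries lay below all vehicle libraries. The marker sums themselves did not overlap, with 4715 to 11470 CPM after PTX and 595 to 2952 CPM after vehicle. A gene that rose less than the markers is therefore lower on this scale. The share of all genes with such a separation on it was not computed.

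Tuba1b lay lower as well, with 2.97 to 4.36 counts per 100 neuron marker counts after PTX and 5.39 to 18.0 after vehicle. Tubb5 gave 28.1 to 41.5 and 35.1 to 153, and Tuba4a 1.74 to 7.12 and 5.18 to 41.2, each with some overlap. The part of RNA from other cells in these ratios was not tested. With the mean log2 CPM of the neuron markers as a covariate, the PTX difference of Tubb3 was 0.29 on the log2 scale (edgeR adjusted p = 0.992), that of Tuba1a 0.46 (0.903) and that of Tubb5 0.77 (0.606), and 0 of the 10 genes and 0 of all genes were called. The centred covariate ran from -2.96 to 0.14 in vehicle libraries and from 0.41 to 1.86 in PTX libraries, without overlap.

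**Figure D5:**
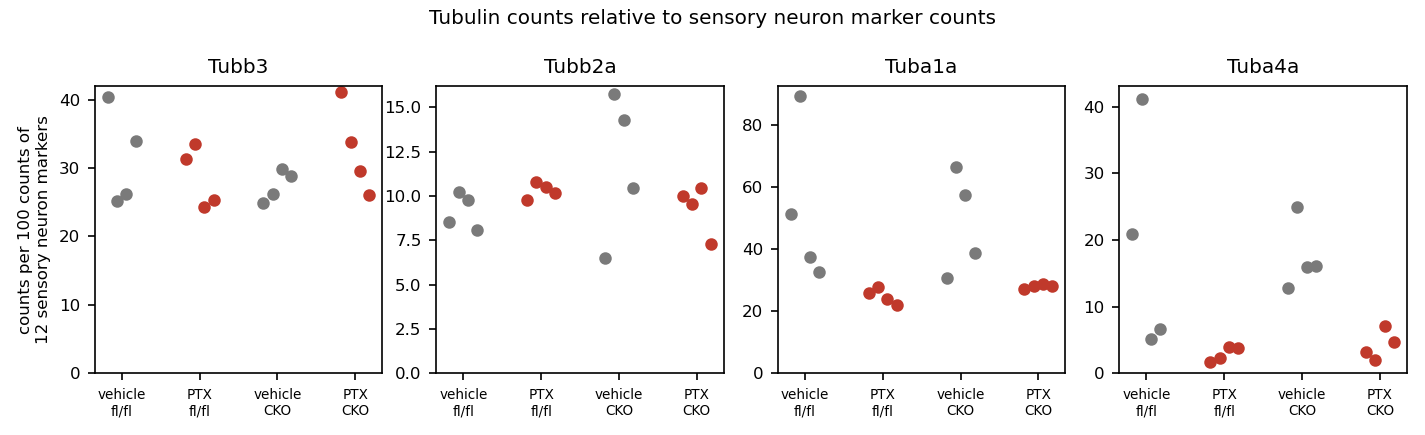
Counts of 4 tubulin genes per 100 counts of the 12 sensory neuron markers in the same library (y axis, linear from 0), in the 4 libraries of each group, with vehicle in grey and PTX in red. Tubb3 and Tubb2a share one range across treatments, and all 8 PTX values of Tuba1a lie below all 8 vehicle values.

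By the shape of their levels over the 16 libraries, the genes most like Tubb3 among those compared were Stmn3 (Pearson r = 0.996 of log2(CPM + 1)), Stmn2 (0.988), Ywhag (0.988), Uchl1 (0.986) and Bcam (0.984). Stmn2 and Stmn3 encode stathmins, neuronal proteins that bind free tubulin dimers. For Tubb5 they were Tubb4b (0.979), Tbcd (0.978), Vamp2 (0.973), Acly (0.972) and Ap3b2 (0.970). Tubb6 had weaker neighbours, led by Hn1l (0.843). These are descriptions: all points share the treatment split and the cell mixture of their libraries.

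Of 10 further tubulin genes, Tuba3a, Tuba3b, Tubal3 and Tubb1 were not among the 6 tested. The 2 class IV beta isotypes rose. Tubb4a (Tubb4 in the files) went from 243 ± 105 CPM after vehicle to 1016 ± 333 CPM after PTX (SD, n = 8 libraries), a log2 fold change of 2.06 ± 0.30 (edgeR adjusted p = 0.000378). Tubb4b (Tubb2c in the files) went from 196 ± 45.0 to 519 ± 178 CPM, 1.40 ± 0.23 (0.000733). Gamma-, delta- and epsilon-tubulin (Tubg1, Tubd1, Tube1) serve nucleation and centrioles. Their log2 fold changes were 0.23 ± 0.53, 0.12 ± 1.40 and -0.02 ± 1.05. Tubd1 (mean 4.74 CPM after PTX and 4.37 after vehicle) and Tube1 (4.72 and 4.96) were low, and their errors leave several-fold differences possible. None of these genes passed. Neither did Tubg2, at 1.72 ± 0.80 (edgeR adjusted p = 0.150).

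Genes that fold tubulin, the subunits of the chaperonin CCT, prefoldin and the tubulin cofactors, numbered 20 tested, of which 10 rose and 0 fell, against 10.6% of all genes higher and 6.19% lower, with a median log2 fold change of 0.81. Tbcd, cofactor D of dimer assembly, rose by 1.99 ± 0.30 (edgeR adjusted p = 0.000524), and the subunits Cct4 and Cct7 rose by 0.98 ± 0.20 (0.00354) and 0.98 ± 0.23 (0.00836). In each genotype alone 1 of the 20 was called, Tbcd, where 3.2% (fl/fl) and 2.22% (CKO) of all genes were higher.

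Among 24 tested genes that modify tubulin, 5 rose and 1 fell, against 10.6% of all genes higher and 6.19% lower, with a median of 1.05. The glutamylating enzymes Ttll7 (2.30 ± 0.42, edgeR adjusted p = 0.00186) and Ttll1 (1.94 ± 0.40, 0.00359) rose, and so did Agtpbp1, which removes glutamates from tails (1.57 ± 0.31, 0.00306). Agbl4, of the same family as Agtpbp1, had 0 counts in all vehicle libraries and 121 in PTX libraries, at most 3.71 CPM. With counts pooled over the libraries of a treatment, this was 38.1-fold higher than a floor of 3 counts over the vehicle group. That value leaves out the spread between libraries. The Agbl4 counts came from 5 of the 8 PTX libraries, and the gene was not called in either genotype alone (edgeR adjusted p = 0.172 in fl/fl and 0.190 in CKO). The gene that fell was Sirt2, an alpha-tubulin deacetylase, by 0.54 ± 0.16 (edgeR adjusted p = 0.0318). Ttl, which restores the terminal tyrosine, had a log2 fold change of 1.74 ± 0.63 and did not pass (edgeR adjusted p = 0.0688).

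Of 10 genes of the gamma-tubulin complex that nucleates microtubules, 1 rose, Tubgcp5 (1.66 ± 0.52, edgeR adjusted p = 0.0383), a share near the 10.6% of all genes, with a list median of 0.13. Of 7 genes for severing proteins 0 rose and 2 fell, against 10.6% and 6.19% of all genes. They were Fign (-1.67 ± 0.38, edgeR adjusted p = 0.00764) and Katna1 (-1.28 ± 0.40, 0.0368), although the list median was 0.62. Of 4 genes for the degradation of tubulin mRNA in response to free dimers 0 passed in either direction, with a list median of -0.16. Among them Ttc5, which recognises the nascent tubulin chain, had 29.4 ± 11.1 CPM after PTX and 31.6 ± 15.5 CPM after vehicle (SD, n = 8 libraries), and Cnot1, the scaffold of the deadenylase complex, 38.5 ± 13.8 and 56.5 ± 20.2 CPM. The log2 fold changes were -0.10 ± 0.38 for Ttc5 (edgeR adjusted p = 0.882) and -0.52 ± 0.29 for Cnot1 (0.229).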

How the data were processed

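RNA from 16 libraries of sorted dorsal root ganglion cells was sequenced after stranded poly(A) preparation. The deposited values are the authors' raw read counts per gene. Per the submitters' processing notes, bcl2fastq, TopHat2 and HTSeq were used on mm9. Versions, annotation and strand setting are not given in the sources used here, so reads of overlapping genes may not be told apart. The 5 HTSeq summary lines were left out of totals.

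After filterByExpr and TMM scaling, counts were fitted in edgeR 4.0.16 (limma 3.58.1, DESeq2 1.42.0 and R 4.3.3 for alternatives) in 1 model of 4 groups with 12 residual degrees of freedom, called at an adjusted p under 0.05. The method was tested on simulated data. Replicates differed from each other by more than counting error in all 24 pairs (chi-square per degree of freedom of 19.5 or more).

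Read sharing and coding ends came from GENCODE M21 on GRCm38, another build than that of the counts, so no coordinates are given. Coding ends of some members are not reported here. Lengths are those of the longest coding transcript. The members and gene lists were chosen with earlier results of these data known. All 10 members are named, and of each other list up to 4 called genes with the smallest adjusted p, or the 2 most abundant where 0 were called. Not all of these are printed. Ttl, Tubg1, Tubg2, Tubd1, Tube1 and Ttc5 were added for their role after values were seen. The genes most like Tubb3, Tubb5 and Tubb6 are the 5 with the highest Pearson r. Clone and predicted-gene symbols were left out, and with them every symbol starting with a letter and a digit, also of named genes.

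Deviations of libraries with the same replicate number correlated at 0.37, 0.40, 0.39 and 0.22 between genotypes under PTX, where numbers share a title date, and at -0.03 to 0.03 under vehicle. Between treatments they ranged from -0.18 to 0.08. Alternatives changed the scaling (RLE, upper-quartile), the filter (none, or at least 5 CPM in 4 libraries) or the design. They were a replicate block, title date terms, each title date left out, the compared groups alone, marker covariates, limma-voom, DESeq2 and leaving out each library.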

Additional observations from a re-analysis of the deposited data

Results flagged for a closer look

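Of 40 sets of 4 libraries (10 genes in 4 groups), 2 held a library far from the other 3 by Dixon's gap test, and chance flags about 1 in 20 sets. Tuba4a stood at 358 CPM in PTX CKO replicate 3, and the other 3 libraries of the group were between 222 and 242 CPM. Tuba8 stood at 23.3 CPM in the same library, against 0 to 3.45 CPM in the other 3. The causes were not tested.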

How the results depend on the processing

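The count of members called over both genotypes, 6, became 2 without the earlier PTX date (Tubb2a and Tubb5; Tubb3 1.63, edgeR adjusted p = 0.0639) and 0 with the neuron or the glial marker covariate. It was 6 or 7 under the other 11 alternatives and 6 without any 1 library. In fl/fl, 6 became 0 without the earlier PTX date, 0 without the earlier vehicle date, 3 with the compared groups alone and 0 with either covariate, and ranged from 2 to 6 leaving out 1 library. In CKO, 6 became 0 without the earlier PTX date, 2 without the earlier vehicle date, 2 with the compared groups alone and 0 with either covariate, and ranged from 0 to 6 leaving out 1 library. Leaving out a date removes libraries, and both covariates differ between treatments without overlap. Otherwise the cause was not tested. Counts in the genotype comparisons and the interaction were 0 under all alternatives run. With a replicate block, 6 became 2 in fl/fl and 0 in CKO, while over both genotypes 6 were called and the genotype comparisons called 0, as did the block among the PTX libraries alone, added after seeing the data. Between treatments the libraries share only a number. Adding paralog counts turned Tuba1c, which was not called alone, from -0.93 to 1.46, the value of the alpha 1 sum, in which it holds few counts. Without the later PTX date Tuba1c was called lower (-2.12, edgeR adjusted p = 0.0124). Over all genes and both genotypes the calls ranged from 0 to 6472 across alternatives, beside 2378. RLE and upper-quartile scaling changed no member's sign and moved members by at most 0.12 (log2, in CKO under RLE) and the median of all genes by at most 0.08. Divided by read-length stretches of their own, a choice made after seeing the data, the median ratio of neuronal to ubiquitous isotypes was 3.68 after PTX and 2.23 after vehicle. Per transcript length it was 2.65 and 1.48, and with Tuba4a counted among the neuronal isotypes it was 2.00 and 1.30. Tuba8 had 0 to 293 counts in a library, and its low values rest on few reads.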
